A study of Mus musculus with 4 samples.

Results

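The genes Runx1, Runx2, Runx3 and Cbfb were examined in a list of 15121 regions bound by Runx3 in splenic CD4+ dendritic cells (DC). A peak was counted for a gene when its centre lay in the gene body or within 50 kb of it, with bodies from the GENCODE M1 annotation. At least 1 such peak was found for 62.6% of protein-coding genes. This rule gave 30 of the 15121 peaks, of which 11 were at Runx1, 3 at Runx2, 12 at Runx3 and 4 at Cbfb. The rule used position alone, so scores and sequence were free to vary among the 30. Placement could vary only within windows that always hold the promoters of the gene.

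Runx3 ChIP-seq was performed on CD11chiMHCII+CD4+ conventional DC sorted from spleen, with 2 Runx3 immunoprecipitates and 2 input samples of whole cell extract. Approximately 15 mice were listed for each of the 4 samples, and the paper describes the 2 experiments as biological replicates. The strain was C57BL/6, although the strain entry of the second input reads C57BL/7. The cells were wild type, with no treatment or mutant allele in the labels of any of the 4 samples, and the age of the mice was not given. The antibody was a home-made polyclonal against Runx3, and its reaction with the Runx1 and Runx2 proteins was not tested here. The deposited data were 1 peak list called on the pooled samples, so no value per replicate existed, no difference could be tested and the sorted cell type could not be checked against expression of its markers. Each peak carried a score written by the peak caller MACS2, whose unit is not stated. It ran from 1.33 to 309.3 in the list, with a median of 12.14 and an upper quartile of 23.19. Positions are on mm9 and are counted from 1.

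RUNX proteins are transcription factors that bind DNA through the Runt domain and recognise the hexamer TGTGGT, which reads ACCACA on the other strand. Cbfb does not bind DNA itself. It pairs with each RUNX protein and strengthens its hold on DNA. Runx1 is known for its part in definitive haematopoiesis, Runx2 for bone formation and Runx3 for T cell, DC and sensory neuron development. Each RUNX gene is transcribed from a distal promoter (P1) and a proximal promoter (P2), which give proteins with different first residues.

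A pair of RUNX hexamers, separated by 2 bases, was found in the distal promoter of each RUNX gene. Whether the pair has a part in the binding of Runx3 there was not tested. Windows of 30 bases around the pair are printed 5′ to 3′ in the direction of the gene, from the mm9 reference (NCBIM37), with both hexamers in capitals. They show the 3 paralogues side by side, at chr16:92826270-92826299 on the minus strand for Runx1, chr4:134676418-134676447 on the plus strand for Runx3 and chr17:44951532-44951561 on the minus strand for Runx2.
Runx1: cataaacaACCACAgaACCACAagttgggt
Runx3: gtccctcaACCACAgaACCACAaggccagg
Runx2: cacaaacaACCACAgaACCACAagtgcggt

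All 3 windows shared the same 18 bases, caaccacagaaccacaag. The match between Runx1 and Runx2 extended to 22 bases, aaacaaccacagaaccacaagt. These 18 bases were chosen as the longest stretch common to the 3 distal promoters, within 500 bp on each side of the TSS. A search of both strands of chromosomes 1 to 19, X and Y found 3 copies, and these were the 3 at the RUNX genes. The search had to return these 3 copies, so it gives no separate support for the element. The first base of the element lay 18 bp downstream of the most upstream distal transcription start site (TSS) of Runx1, in its 5′ untranslated exon. Another distal transcript of Runx1 starts at position 92826256, and the element lies upstream of that start. The first base lay 143 bp upstream of the distal TSS of Runx3. At Runx2 it lay 25 bp upstream of the distal TSS at position 44951530, although other annotated transcripts start further upstream at 44951576 and 44951746 and so include it.

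Runx3 peaks covered 2 of the 3 copies. The copy at Runx1 was inside a peak with a score of 156, with 64 bp between the middle of the element and the peak centre. The copy at Runx3 was inside a peak with a score of 151, at 136 bp from its centre. No peak covered the copy at Runx2, where the nearest peak centre was 4708 bp away and had a score of 16.5. The absence of a peak shows only that none was called at the depth of these libraries.

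The spaced pair without its flanks, TGTGGTNNTGTGGT on either strand, was wider spread. It had 1388 copies in the genome, of which 5.48% (76 copies) were in a peak, and it was held by 37 peaks or 0.245% of the list. The median score of these 37 peaks was 13.43, close to that of the whole list, and the peaks at the distal promoters of Runx1 and Runx3 were the highest and the next highest of them. In the window from 250 bp upstream to 50 bp downstream of a protein-coding TSS, 8 of 45946 TSS (0.0174%) had the pair, and they belonged to 5 genes. These were Runx1, Runx2, Runx3, Card6 and Nsun4, of which Card6 and Nsun4 are named after the result was seen. The pair is part of the element taken from the distal promoters of the RUNX genes. Runx1, Runx2 and Runx3 therefore had to be found, and their presence gives no separate support for the element. Card6, which encodes a caspase recruitment domain protein, had its copy in a peak with a score of 10.1. The copy of Nsun4, which encodes an RNA methyltransferase of mitochondria, was in no peak.

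The distal promoters of Runx1 and Runx3 carried peaks near the top of the list. At Runx1, the peak at chr16:92825827-92826613 was 787 bp wide, ranked 25 of 15121 and was centred 36 bp from the nearest distal TSS, in exon 1. At Runx3, the peak at chr4:134675808-134676784 was 977 bp wide, ranked 29 and was centred 271 bp upstream of the distal TSS. The 5234 peaks within 1 kb of a protein-coding TSS had a median score of 12.69. Of these, 99.9% scored no higher than the peak at each of these promoters, with ties and the peak itself counted. Only 4 of 22254 protein-coding genes, Runx1 included, had a promoter peak at least as high as that of Runx1, and 5 had one at least as high as that of Runx3. The Runx3 peak was also centred 66 bp from the TSS of Gm16225, a noncoding RNA transcribed from the opposite strand, so its assignment to Runx3 rests on the distance rule.

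The proximal promoters of the same genes carried weaker peaks. At Runx1, peaks were centred 801 bp upstream (chr16:92698224-92698525, score 7.84) and 548 bp downstream (chr16:92696777-92697273, score 4.79) of the nearest proximal TSS, and both lay in intron 2 of the distal transcript. At Runx3, 1 peak was centred 388 bp upstream of the proximal TSS (chr4:134707828-134708218, score 11.2), in intron 1 of the distal transcript. Among peaks within 1 kb of a protein-coding TSS, 30.1% scored no higher than the stronger of the Runx1 pair. For the Runx3 peak the share was 46.6%, again with ties and the peak itself counted. The proximal peak at Runx3 had 1 TGTGGT, which stood 113 bp from the peak centre and is shown in capitals within 80 bases of the plus strand at chr4:134707871-134707950.
Runx3 proximal: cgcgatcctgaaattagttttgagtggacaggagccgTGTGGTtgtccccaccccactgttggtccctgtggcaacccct

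Runx2, the osteogenic member, had no peak at either promoter. The nearest centre was 4692 bp downstream of the distal TSS, and for the proximal promoter it was 46593 bp away. The 1 kb around the distal TSS of Runx2 nevertheless held 5 TGTGGT hexamers, beside 4 at the distal promoter of Runx1 and 3 at that of Runx3. Of all 1 kb windows around a protein-coding TSS, 0.649% held 4 or more and 42.1% held at least 1. None was found in the 1 kb (500 bp on each side) around the proximal promoters of the 3 genes or the promoter of Cbfb. For the proximal promoters this absence depends on the window. Outside it, the nearest TGTGGT started at -503 bp from the most upstream proximal TSS for Runx3 and -550 bp for Runx2, both upstream. For Runx1 it started at 634 bp, downstream.

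The distal and proximal promoters also differed in base composition, in the same direction for the 3 paralogues. The CpG ratio (observed over expected from the base content) in the 1 kb around the distal TSS was 0.342 at Runx1, 0.204 at Runx2 and 0.362 at Runx3. At the proximal TSS it was 0.867, 0.898 and 0.951 in the same order. The median over all protein-coding TSS was 0.541, which lay between the distal and the proximal values. The promoter of Cbfb, at 0.928, was on the side of the proximal promoters.

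**Figure D1:**
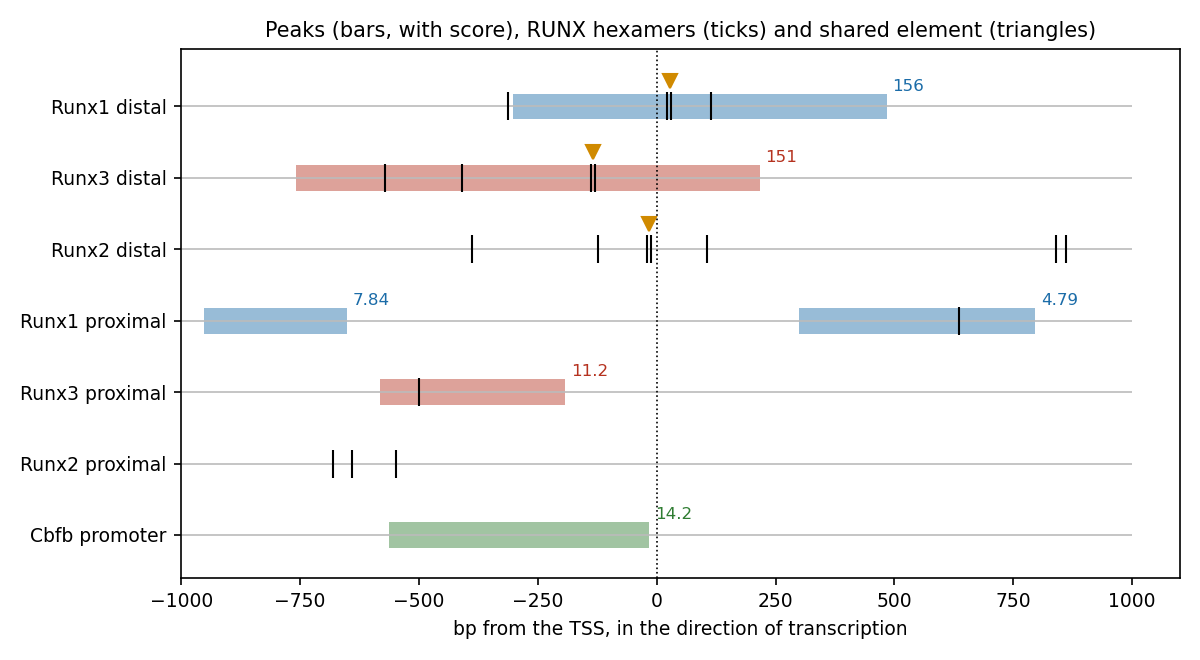
Peaks at the 7 promoters of the RUNX genes and Cbfb, by distance in bp from the most upstream TSS assigned to each promoter. For the distal promoter of Runx2 this is position 44951530, and other annotated transcripts start further upstream. Bars are peaks with their scores, black ticks are TGTGGT hexamers on either strand and triangles mark the 18-base element, which lies in a peak at the distal promoters of Runx1 (156) and Runx3 (151) and in none at Runx2.

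Counted together, 5 of the 7 promoters had a peak centred within 1 kb, beside 24.3% of protein-coding genes with a peak within 1 kb of any of their TSS. Of these, 2 had a score at or above the upper quartile of the list, beside 6.49% of genes. Among the 3126 protein-coding genes with TSS at least 10 kb apart, 24.9% had a peak at the most upstream group, 6.78% at a later one and 1.86% at both. Runx1 and Runx3 were among the genes with peaks at both, and Runx2 had a peak at neither.

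The 11 peaks of Runx1 lay along a body of 224.6 kb and its upstream flank (chr16:92601712-92826311, minus strand). As many peaks were found at 0.463% of protein-coding genes, whose median was 1 and whose 95th percentile was 6. The window of Runx1 was long, and its density of 3.39 peaks per 100 kb was matched or passed by 13.3% of genes. The lowest score was 3.69, the median 18.95 and the highest 156, and 4 peaks were at or above the upper quartile. All 4 were in the first 25060 bp from the distal TSS.

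Besides the distal promoter peak, the strongest at Runx1 were both in intron 2. The peak at chr16:92818681-92819181 had a score of 54.7, ranked 844 and was centred 7325 bp downstream of the distal TSS. The peak at chr16:92821797-92822742 had a score of 49.7, ranked 1072 and was centred 3987 bp downstream. With 946 bp it was the widest of the 30 after the distal promoter peak of Runx3, and it held 5 TGTGGT hexamers, a number reached by 0.417% of all peaks. The hexamer nearest each centre is shown within 80 bases, on the minus strand, at chr16:92818967-92819046 and chr16:92822151-92822230.
Runx1 intron 2, score 54.7: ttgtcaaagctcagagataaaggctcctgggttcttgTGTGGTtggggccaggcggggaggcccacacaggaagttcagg
Runx1 intron 2, score 49.7: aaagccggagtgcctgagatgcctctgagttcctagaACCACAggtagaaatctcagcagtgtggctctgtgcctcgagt

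Further into intron 2 of Runx1, a pair of neighbouring peaks was centred 24386 bp (score 13.4) and 25060 bp (score 27.5) from the distal TSS, and a peak of 3.69, the weakest of the 30, was centred at 43389 bp. Intron 5 held 1 peak with a score of 18.95. Upstream of the gene, peaks were centred 41373 bp (score 13.1) and 48098 bp (score 21.1) from the distal TSS. No peak lay within 50 kb downstream of Runx1. For 10 of the 11 peaks the nearest TSS of any gene was that of Runx1, and for the peak in intron 5 it was that of the noncoding RNA Gm16801.

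The 12 peaks of Runx3 were packed around a shorter body of 57.3 kb (chr4:134676567-134733905, plus strand). Of these, 4 were upstream, 4 in the body and 4 downstream. As many were found at 0.234% of protein-coding genes. The density of 7.63 per 100 kb was matched or passed by 1.08% of genes, beside a median of 0.881 per 100 kb over all genes. The lowest score was 4.73, the median 10.54 and the highest 151, and 4 peaks were at or above the upper quartile.

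These 4 were spread over the locus of Runx3, with 1 each upstream, at the distal promoter, in intron 1 and downstream. The upstream peak, at chr4:134641247-134641806, was centred 35041 bp before the distal TSS, had a score of 67.3 and ranked 525. The downstream peak, at chr4:134748676-134749115, was centred 14990 bp past the end of the gene and had a score of 34.2, with its single TGTGGT at 0 bp from the centre. The intron 1 peak, at chr4:134684590-134685112, was centred 8284 bp from the distal TSS with a score of 24.1 and had no TGTGGT and 1 of the variant TGCGGT. The hexamers of the upstream and downstream peaks are shown in capitals within 80 bases of the plus strand, at chr4:134641457-134641536 and chr4:134748856-134748935.
Runx3 upstream: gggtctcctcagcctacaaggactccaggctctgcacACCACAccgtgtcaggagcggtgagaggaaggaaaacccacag
Runx3 downstream: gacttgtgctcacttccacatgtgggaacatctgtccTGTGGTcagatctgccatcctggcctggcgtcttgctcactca

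The other 7 peaks of Runx3 away from its promoters were weaker. Their scores were 6.57 and 4.79 in the upstream flank, 4.73 in intron 1 and 5.30 in intron 3, and 15.7, 9.84 and 4.79 in the downstream flank. The nearest TSS of any gene was that of Runx3 for 8 of the 12 peaks, and for the 4 upstream peaks it was that of Gm16225. The protein-coding gene Clic4, a chloride intracellular channel gene, lies on the opposite strand and has its 3′ end within 50 kb of the end of Runx3, but no counted peak was centred in its body.

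**Figure D2:**
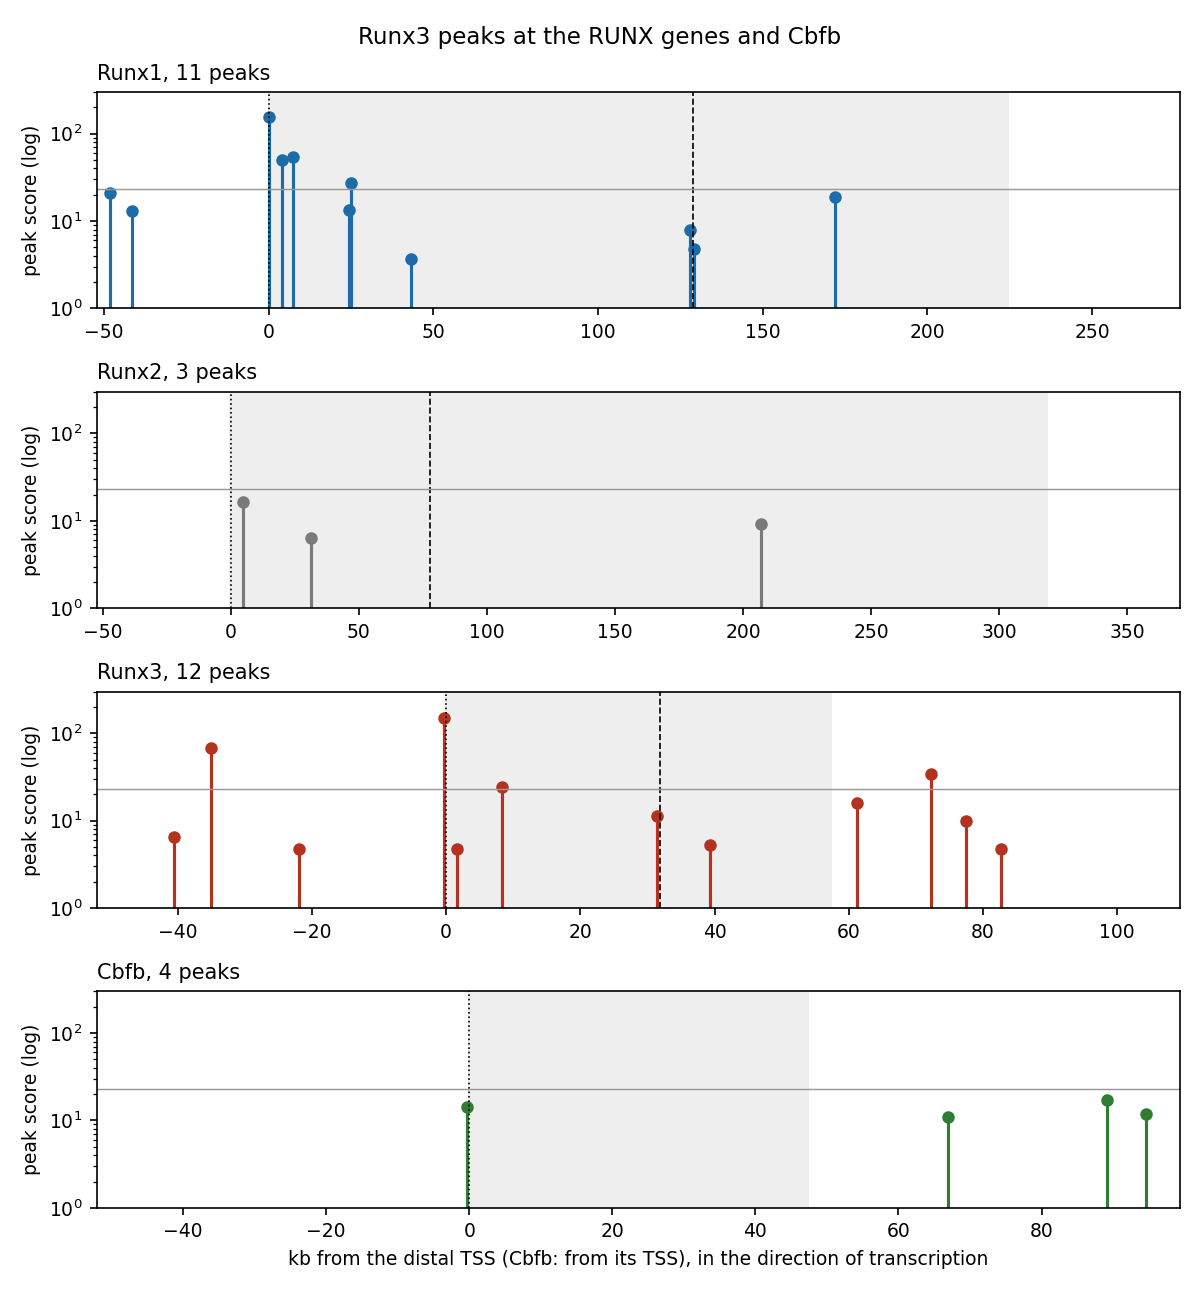
Score of each of the 30 peaks (log axis) by distance in kb from the distal TSS, or from the TSS for Cbfb, in the direction of transcription. Grey shading is the gene body, dotted lines the distal or single TSS, dashed lines the proximal TSS and horizontal lines the upper quartile of the list (23.19). The 2 tallest points stand at the distal promoters of Runx1 and Runx3, and no point of Runx2 or Cbfb reaches the upper quartile.

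The 3 peaks of Runx2 were all in its body (chr17:44632936-44951746, minus strand). At least 3 peaks were found at 29.8% of protein-coding genes, and the density of 0.716 per 100 kb was under the median over genes. The strongest, at chr17:44946647-44947030 in intron 1, had a score of 16.5 and 1 TGTGGT, which stood 13 bp from the centre. The others had scores of 6.32 in intron 1 and 9.16 in intron 5. Both intron 1 peaks also lay in the body of Supt3h, which encodes a subunit of histone acetyltransferase complexes and overlaps Runx2 on the other strand. The nearest TSS was that of Runx2 for 1 of the 3 peaks. The hexamer of the strongest peak is shown within 80 bases of the minus strand at chr17:44946812-44946891.
Runx2 intron 1: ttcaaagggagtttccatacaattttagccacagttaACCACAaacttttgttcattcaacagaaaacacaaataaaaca

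Cbfb, the shared partner subunit, had 4 peaks and none in its body (chr8:107694574-107741886, plus strand). At least 4 peaks were found at 18.8% of protein-coding genes. The promoter peak at chr8:107694010-107694558 was centred 290 bp upstream of the TSS and had a score of 14.2. Of the peaks within 1 kb of a protein-coding TSS, 57.4% scored no higher, ties and the peak itself counted. The promoter peak had no TGTGGT or TGCGGT in its 549 bp, but 4 copies of GGGCGG (GC box) and 2 of the ETS core GGAAGT. A stretch of 240 bases of the peak that includes its centre, at chr8:107694224-107694463 on the plus strand, is shown with the 1 GGAAGT it contains in capitals.
Cbfb promoter: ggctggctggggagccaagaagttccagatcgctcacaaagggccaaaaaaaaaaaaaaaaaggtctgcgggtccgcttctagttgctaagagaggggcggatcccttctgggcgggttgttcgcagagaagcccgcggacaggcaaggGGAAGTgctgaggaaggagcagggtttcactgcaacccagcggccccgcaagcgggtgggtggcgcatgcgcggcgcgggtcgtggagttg

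The other 3 peaks of Cbfb were downstream and each lay in the body of another protein-coding gene. A peak with a score of 11.1 was in D230025D16Rik, the peak with the highest score of the 4, 17.3, was in Tradd, which encodes an adaptor of tumour necrosis factor receptor signalling, and a peak of 11.96 was in Fbxl8, an F-box protein gene. The Tradd and Fbxl8 peaks were centred 275 and 603 bp from the nearest TSS of those genes. The window of Cbfb also reached Ces4a and B3gnt9-ps, in which no counted peak was centred.

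The 50 kb limit decided a strong peak at Runx3. Just inside it were the Runx1 peak at 48098 bp and the Cbfb peak at 47299 bp. Just outside it, 50673 bp upstream of Runx3 at chr4:134625542-134626247, was a peak with a score of 99.3 that ranked 166, which would have been the second strongest of that gene. The next outside was 58801 bp from Runx3 and had a score of 4.79.

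A peak at or above the upper quartile was found at Runx1 and Runx3 and at 31.1% of protein-coding genes. The strongest peak of Runx1 was matched or passed at 0.288% of genes and that of Runx3 at 0.301%. For Runx2 and Cbfb the shares were 40.1% and 38.9%. Neighbouring genes share peaks under this rule, so these shares count genes and not separate binding events.

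**Figure D3:**
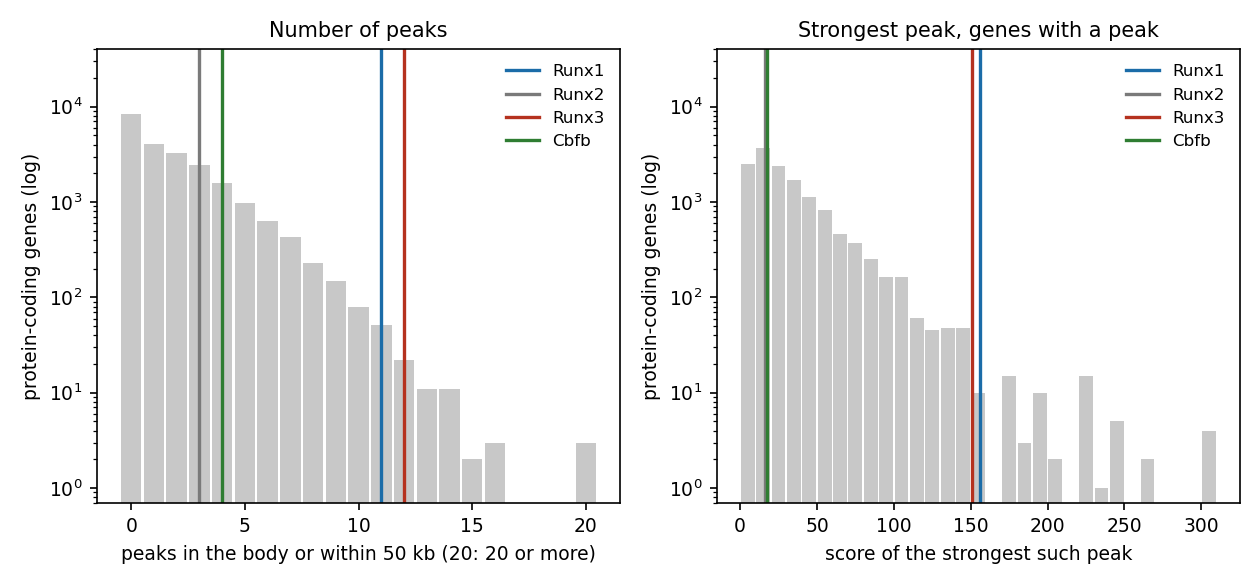
Protein-coding genes (log axis) by the number of peaks in the body or within 50 kb, left, and by the score of the strongest such peak for genes with a peak, right. Vertical lines mark the 4 genes. Runx1 (11 peaks, 156) and Runx3 (12 peaks, 151) stand in the right tail of both panels, and Runx2 (3, 16.5) and Cbfb (4, 17.3) stand in the bulk.

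TGTGGT on either strand was in 23 of the 30 peaks (76.7%, exact Clopper-Pearson 95% interval 57.7% to 90.1%, counting error only), beside 54% of all peaks. Peaks of 1 gene share a locus and are not replicates, so the interval describes these 30 peaks as if they were separate. The paper, which used de novo motif discovery, gives a larger share of bound regions with the RUNX motif. Its matching rule is not stated, and only exact matches were counted here. The heptamer TGTGGTT, which contains the hexamer, was in 16 (53.3%), beside 27.7% of the list. The variant TGCGGT was in 7 (23.3%), beside 20.1%. Within the central 200 bp, 20 of the 30 peaks had TGTGGT (66.7%), beside 41.8% of the list. The median width was 415.5 bp, beside 406 bp over the list, and the peaks held 2.73 hexamers per kb, beside 1.82. By gene there were 3.32 per kb at Runx1, 3.79 at Runx2 and 2.35 at Runx3. The peaks of Cbfb held 1.26 per kb, fewer than the list.

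The 7 peaks without TGTGGT were spread over Runx1, Runx3 and Cbfb. At Runx1 they were the upstream member of the neighbouring pair in intron 2 and the stronger peak by the proximal promoter, and both held 1 TGCGGT. At Runx3 they were the intron 1 peak of 24.1, which also held 1 TGCGGT, and the downstream peaks of 15.7 and 4.79, which held none. At Cbfb they were the promoter peak, with none, and the peak in Tradd, with 2. All 3 peaks of Runx2 held at least 1 TGTGGT.

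Motifs of other factors were less frequent than the RUNX hexamer. GAGGAA, a PU.1 type sequence, was in 17 peaks (56.7%), beside 53.6% of the list, and the ETS core GGAAGT in 13 (43.3%), beside 52.8%. TGANTCA, bound by AP-1, was in 5 (16.7%), beside 13.2%. The GC box GGGCGG was in 6 (20%), beside 31.7%. TGACGT, a motif of the DC factor zDC, was in 3 (10%), beside 11%, and the E-box CACGTG (10.9% of the list) and the GATA sequence AGATAA (14.4% of the list) were also in 3 peaks each. For these 7 motifs the share over the list was inside the exact 95% interval for the 30 peaks. That interval treats peaks of the same locus as separate, so it is a description and not a test. The distal promoter peak of Runx1 held 1 AP-1 sequence and 1 E-box, and that of Runx3 held 2 GC boxes. Neither held the PU.1 type, ETS, zDC or GATA sequence.

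**Figure D4:**
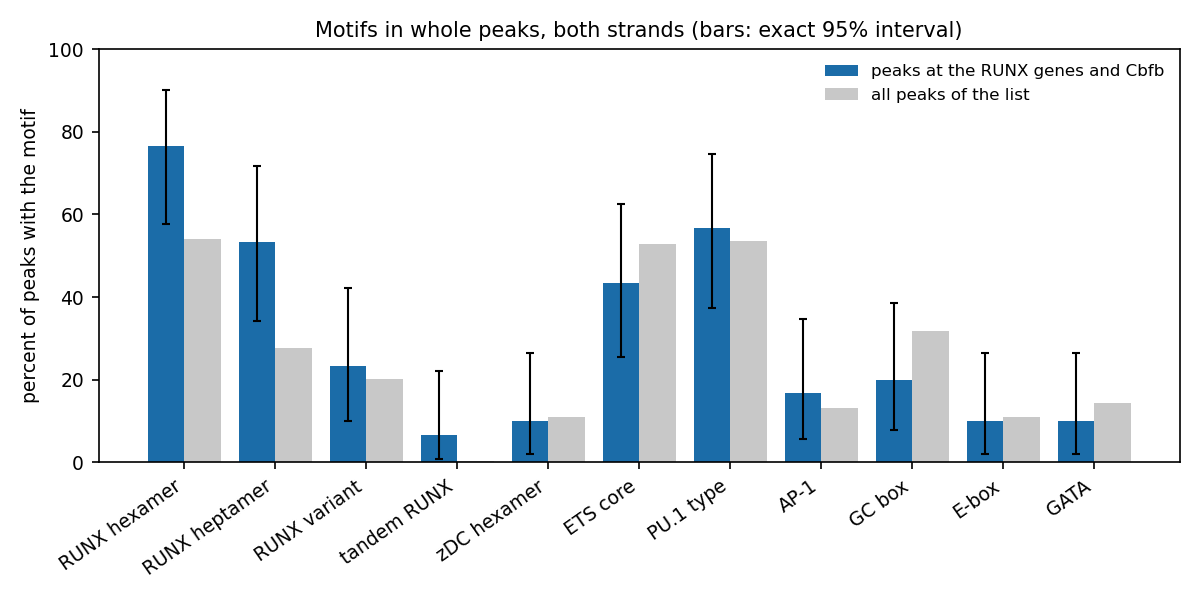
Percent of peaks with each motif, on either strand of the whole peak, for the 30 peaks of the 4 genes (blue) and all 15121 peaks (grey). Error bars are exact 95% intervals for the 30 peaks. The RUNX hexamer stands at 76.7% beside 54% and the heptamer at 53.3% beside 27.7%.

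Proteins that work with RUNX factors were examined as a list of 28 genes, all of which were matched in the annotation. A peak in the body or within 50 kb was found at 26 (92.9%), beside 62.6% of all protein-coding genes, and 14 (50%) had a peak within 1 kb of a TSS, beside 24.3%. The strongest peak was at or above the upper quartile for 15 (53.6%), beside 31.1%. The windows of the list were longer than those of all genes, with a median of 178 kb beside 115 kb, and their median number of peaks was 2 beside 1. None of the 28 reached the 11 peaks of Runx1 or a score of 150. Of all protein-coding genes, 0.463% had 11 or more peaks and 0.301% had a strongest peak at least as high as that of Runx3. With shares this small, a list of 28 genes cannot be told apart from all genes by having none.

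The highest score in the list was at the promoter of Spi1, which encodes the myeloid transcription factor PU.1 and had 8 peaks, the strongest with a score of 99.3. The Groucho corepressor genes Tle1, Tle2, Tle3, Tle4 and Aes all had peaks, from 1 at Tle4 to 7 at Tle3, where the strongest reached 62.4. Of the ETO corepressor family, Cbfa2t3 had 5 peaks and Cbfa2t2 had 2, while Runx1t1 had none. The acetyltransferase gene Ep300 had 6 peaks, of which 3 were within 1 kb of a TSS and scored at most 9.16, and its paralogue Crebbp had 1 with a score of 54.7.

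Sin3a, Hdac1, Hdac3 and Ncor1, of corepressor complexes, had 2 to 3 peaks each, with strongest scores from 13.4 at Hdac1 to 42.9 at Hdac3. Kat6a and Kat6b, acetyltransferases, had 1 and 3 peaks, and the methyltransferases Suv39h1 and Prmt1 had 2 and 7. Smad3, a mediator of TGF-beta signalling, had 5 peaks, all in its body, with a strongest score of 55.8. Yap1 and Wwtr1, the Hippo pathway coactivators, had 1 peak each, with scores of 70.4 and 10.98. Among genes of protein modification, Stub1 had 9 peaks, the most in the list, Smurf2 had 5, Smurf1 had 2, and Hipk2 and Mdm2 had 1 each. None of the 9 was centred in the body of Stub1, and its peak within 1 kb of a TSS scored 5.96. Ets1, a DNA-binding partner of Runx1, had no peak in its window. For Tle2, Aes, Hdac3, Crebbp, Kat6a, Yap1 and Smurf2, no peak was centred in the body or within 1 kb of a TSS. All their peaks lay in the flanks, and whether these belong to the listed or to neighbouring genes was not tested.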

How the data were processed

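Runx3 ChIP-seq reads of 50 bp, from fragments of about 300 bp, were aligned uniquely to mm9 with Bowtie by the authors, who called bound regions with MACS2. CASAVA 1.8 is also named in the submitters' processing notes. Other versions, the calling threshold and duplicate handling were not given in the sources used here. The deposited list holds peak start, end and a score for both immunoprecipitates against both inputs, pooled. The score was used within the list only, and 0 columns belonged to other samples. The depth of each library was not analysed here.

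Peaks were placed by centre. Genes were from GENCODE M1, where Runx2 has 2 identifiers that were merged. Transcripts whose protein starts MAS were assigned to the distal promoter and those starting MRIPV to the proximal promoter. Introns are numbered in a distal transcript. Sequences were read from NCBIM37, and motifs were searched on both strands. No test was made, and values over all protein-coding genes or all peaks are given as background. The named genes were the 4 genes, protein-coding genes overlapping their windows and the 28 partner genes, with other genes named only where stated. The genes, lists and alternatives were chosen with earlier results of these data known. Counting and motif search were tested on simulated data. Python 3.11.15, numpy 2.4.6, scipy 1.17.1, pysam 0.24.0 and matplotlib 3.10.9 were used.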

Additional observations from a re-analysis of the deposited data

How the results depend on the processing

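No paired analysis was possible because the deposited list is a single call on pooled samples with no value per replicate, and for the same reason no replicate could be left out. Of the results under the alternatives, 33 were within 1.5 times of the count given, equal to the score given or inside the exact interval of the share given, and 20 were not. With the gene body alone, Runx3 had 4 peaks with a strongest score of 24.06 and Cbfb had 0 peaks, so a strongest score of 0. With 10 kb flanks Runx3 had 6 peaks and Cbfb 1, and with 100 kb flanks Runx3 had 22 and Runx2 had 5. At or above the list median, Runx3 had 5 peaks, Cbfb 2 and Runx2 1. At or above the upper quartile, Runx1 and Runx3 had 4 each, and Runx2 and Cbfb had 0. Counting peaks whose nearest TSS is that of the gene left 1 at Runx2 and 1 at Cbfb. Promoters with a peak fell from 5 to 2 when the peak had to cover the TSS, and also to 2 at or above the upper quartile. With the heptamer, 53.3% of the 30 peaks had the motif. Joining peaks, counting any base of a peak or using protein-coding transcripts alone left each count within 1.5 times. A weak region could have been missed at this depth, and the pooled list cannot show how far any peak varied between the immunoprecipitates.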
